A study of Homo sapiens with 6 samples.

Results

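The miRNAs encoded inside the human HOX clusters were examined in breast cancer stem-like cells (BCSCs) with and without rosmarinic acid (RA), a plant phenolic acid. Members were all rows of the deposited miRNA table whose name began with hsa-miR-10a, hsa-miR-10b, hsa-miR-196a, hsa-miR-196b or hsa-miR-615, which gave 10 of 449 mature miRNAs. The BCSCs were wild-type cells derived from MDA-MB-231, a triple-negative breast carcinoma line of mesenchymal character. Both groups came from this 1 cell line, had been grown with cholera toxin and then as spheres with growth factors, and were moved to serum medium for treatment. The 3 control libraries were from cells at 0 μg/mL RA and the 3 RA libraries from cells at 200 μg/mL RA, both labelled 48 h. The values are CPM, reads of a miRNA relative to the size of its library, which the authors had scaled by a factor for each library. The treatment notes mention 3 wells per group but do not tie libraries to wells or separate cultures. The p-values therefore reflect only how far these libraries differed, which may be technical.

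HOX genes encode transcription factors that set position along the body axis and lie in clusters A to D, in an order that matches where they are expressed. The miR-10 genes sit beside the HOX4 paralogs and the miR-196 genes near the HOX9 and HOX10 paralogs, and these miRNAs restrain HOX messages, among them HOXD10 for miR-10b and HOXB8 for miR-196. miR-10b is known in breast cancer for promoting invasion and metastasis. A miRNA hairpin yields a 5p and a 3p strand, of which one usually enters the silencing complex as the guide while the other, the passenger, is degraded.

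All of the HOX clusters A to D were represented. On GRCh38 the hairpin MIR196B lies in HOXA on chromosome 7 (27169480 to 27169563, minus strand), overlapping an exon of a HOXA9 transcript in GENCODE 29. In HOXB, MIR10A lies on chromosome 17 (48579838 to 48579947, minus strand), overlapping an exon of a HOXB4 transcript, and MIR196A1 (48632490 to 48632559, minus strand) lies 52.5 kb away in an intron of HOXB7. HOXC holds MIR196A2 on chromosome 12 (53991738 to 53991847, plus strand), in an intron of HOXC6, and MIR615 (54033950 to 54034045, plus strand) 42.1 kb further on, in an intron of HOXC5. MIR10B, in HOXD on chromosome 2 (176150303 to 176150412, plus strand), lies in an intron of HOXD3. The submitters' processing notes name hg19, and as the deposited table is without coordinates these positions describe the genes and not the mapping. Reads of miR-196a-5p can come from MIR196A1 or MIR196A2 and cannot be assigned to HOXB or HOXC, whereas miR-196a-3p is listed for MIR196A2 alone.

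**Figure D1:**
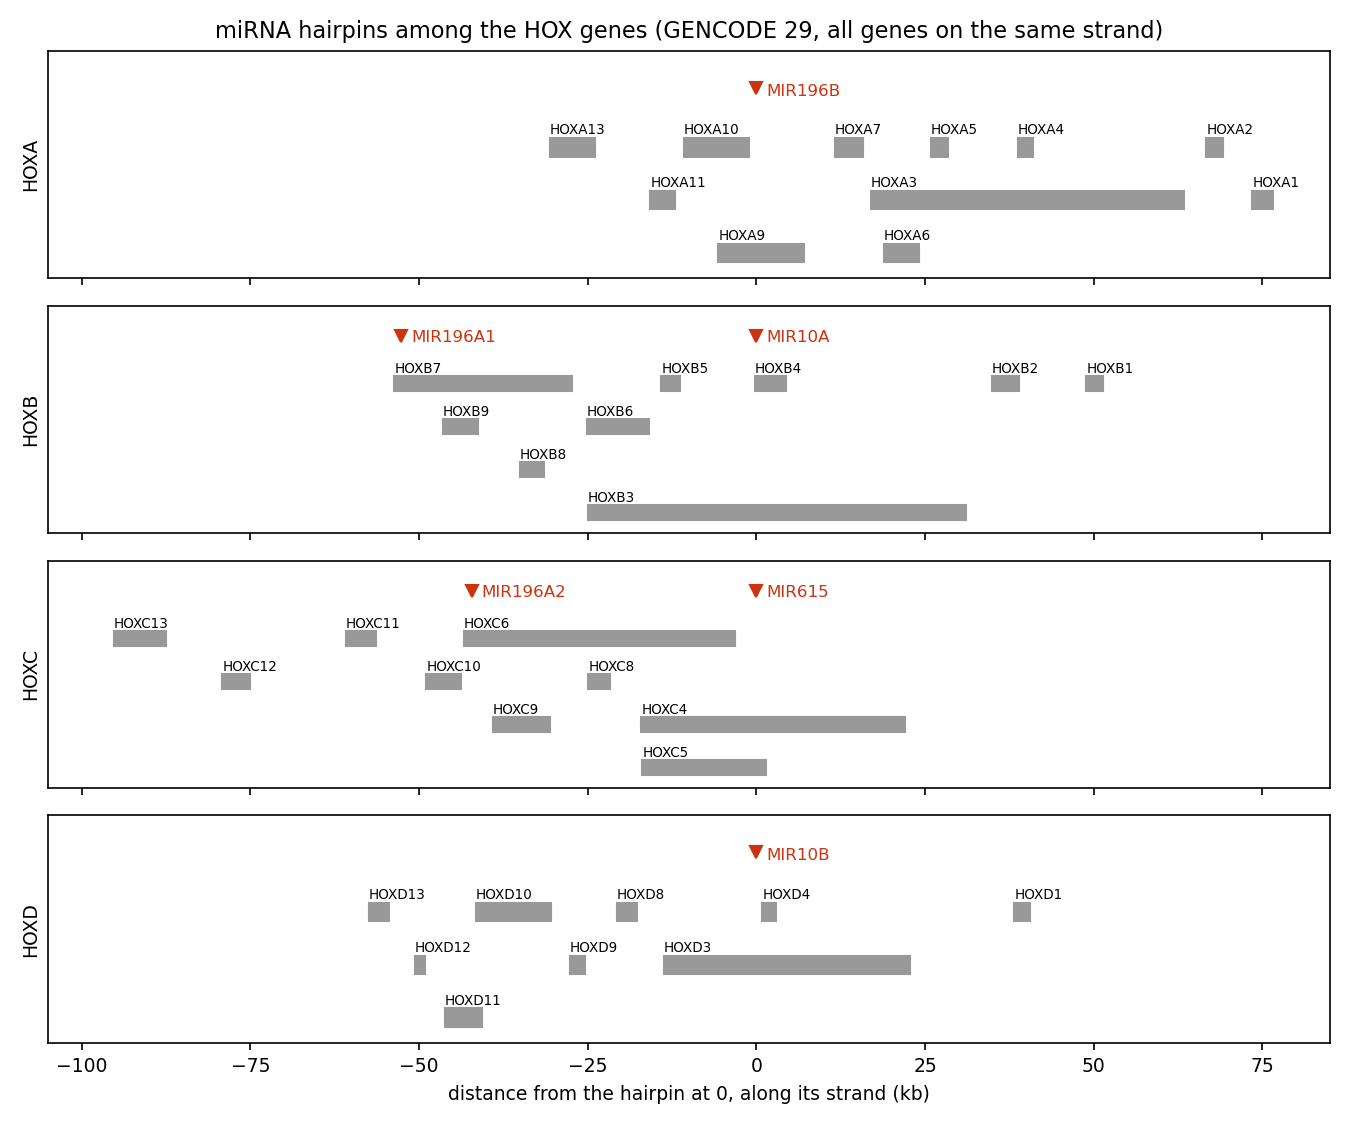
Positions of the miRNA hairpins (triangles) and of HOX genes (grey bars, GENCODE 29) in each cluster, as distance in kb along the strand of the hairpin placed at 0. Each of the 4 clusters holds at least 1 measured hairpin, MIR196A1 lies 52.5 kb from MIR10A and MIR196A2 42.1 kb from MIR615, and HOXB13 lies outside the window drawn.

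Mature sequences were taken from RefSeq on GRCh38.p14 for 9 of the 10 members, all but miR-10b-5p. They bear on which strands can be told apart by their reads. The seed (bases 2 to 8), which leads target recognition, is in capitals. The guide strand of miR-10a is set beside miR-99a, miR-99b and miR-100, which are related to it in sequence and are encoded outside the HOX clusters.
miR-10a-5p: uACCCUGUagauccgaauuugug
miR-99a-5p: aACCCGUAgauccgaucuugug
miR-99b-5p: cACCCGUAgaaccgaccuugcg
miR-100-5p: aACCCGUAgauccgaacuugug
The seeds of miR-10a-5p and of these relatives differ, and miR-10a-5p and miR-100-5p share the run GUAGAUCCGAA, which starts at base 7 of the first and base 6 of the second, within both seeds, and runs on beyond them. miR-10a-5p and miR-10b-5p are known to be close in sequence, and reads of one may have been counted for the other. They were not compared here, as a sequence of miR-10b-5p was missing.

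The guide strands of miR-196 are shown with let-7a, which holds the same bases in a shifted position.
miR-196a-5p: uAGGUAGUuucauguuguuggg
miR-196b-5p: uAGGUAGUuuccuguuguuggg
let-7a-5p: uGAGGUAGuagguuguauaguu
miR-196a-5p and miR-196b-5p share their seed and differ at 1 position (A12C, counted from the 5′ end, with the base of miR-196a first), so their reads are separated by that base alone. The run AGGUAGU starts at base 2 of miR-196a-5p and at base 3 of let-7a-5p.

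The dominant and passenger strands that the arm ratios below rest on are given for the miR-615 hairpin and for the 3p strands of miR-10a, miR-10b and miR-196b.
miR-615-3p: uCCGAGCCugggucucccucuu
miR-615-5p: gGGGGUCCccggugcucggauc
miR-10a-3p: cAAAUUCGuaucuaggggaaua
miR-10b-3p: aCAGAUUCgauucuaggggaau
miR-196b-3p: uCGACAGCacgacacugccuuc
The 3p strands of miR-10a and miR-10b carry different seeds, by which their reads can be told apart.

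Depth differed with the group. The control libraries held 2190324 to 4111404 miRNA reads and the RA libraries 176590 to 1158116, so that 1 read stood for 0.233 to 0.526 CPM in controls and 0.987 to 5.21 CPM after RA. The effect of depth cannot be told apart from the comparison. The 6 markers of mesenchymal-like lines were all present, summing to 28626 to 31226 CPM in controls and 24577 to 33131 CPM after RA. The 5 epithelial markers with a row, of 7 listed, summed to 195 to 278 CPM and 183 to 282 CPM. None of them passed by limma and 1 by edgeR, miR-203a-3p, beside 7.57% and 14.7% of all miRNAs. It stood at 64.2 CPM in RA replicate 1, 0 CPM in RA replicates 2 and 3 and at most 1.61 CPM in controls. The log2 fold changes of the others were below 0 by limma, without passing. miR-141-3p and miR-205-5p of that list had no row. RA replicate 1 held 9493 CPM of the liver miRNA miR-122-5p, against at most 32.1 CPM in any other library. Signal of other tissues was not limited to that library. Of the 7 blood miRNAs 1 was higher by limma and 3 passed by edgeR, beside 7.57% and 14.7% of all miRNAs called in either direction. That list summed to 1935 to 2104 CPM without and 1683 to 2682 CPM with RA. In RA replicates 1 to 3 miR-451a, of red blood cells, stood at 824, 26.0 and 355 CPM, against 5.26 to 33.8 CPM in control libraries (limma, adjusted p = 0.031), and RA replicate 3 held 212 CPM of miR-150-5p and 145 CPM of miR-223-3p. The limma call of miR-451a was lost on omitting replicate 1 or replicate 3 of either group. Other blood miRNAs were detected in every library and had lower means after RA, without passing. Mean levels without and with RA were 1003 and 930 CPM for miR-142-5p and 616 and 448 CPM for miR-142-3p. For miR-486-5p they were 383 and 328 CPM, whereas miR-144-3p averaged 0.351 and 2.27 CPM. The part of these tissue signals in the results was not tested. The labels' extraction notes speak of brain tissue, although the study used cultured cells. Of 6 brain markers miR-124-3p and miR-138-5p had no row, and the other 4 summed to 4894 to 5293 CPM in controls and 3917 to 6022 CPM after RA, most of it miR-9-5p. That miRNA is also on the metastasis-linked list below, so its level does not mark brain alone. miR-219a-5p, miR-129-5p and miR-132-3p stood at 17.8 CPM or less in every library.

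None of the 10 HOX cluster miRNAs passed at an adjusted p under 0.05 after RA, by limma on log2(CPM + 1) adjusted over all 449 miRNAs. Of all miRNAs 7.57% passed by that test. None of the 10 passed by edgeR's quasi-likelihood fit of the recovered reads either, against 14.7% of all miRNAs. At an unadjusted p under 0.05 there were 2 members by limma, miR-196b-3p and miR-10b-3p, and 1 by edgeR, miR-196b-3p, beside 98 and 128 of all 449. Of the members 3 had a log2 fold change above 0 and 7 below, beside 225 and 224 of all 449. Their median was -0.14, beside 0.00 for all 449 and -0.15 for the 344 miRNAs with at least 1 CPM in 3 libraries. The members therefore did not lean lower than the miRNAs kept by that filter. Together the HOX cluster miRNAs took 5.91% to 8.58% of the miRNA reads in the controls and 6.15% to 7.81% after RA, and the ranges overlapped. Their summed level of 73985 ± 8607 CPM without RA compared with 66929 ± 19351 CPM with it (SD, 3 libraries each, two-sided exact permutation p = 0.6, where 0.1 is the smallest p that 3 against 3 libraries allow). The difference of -7056 CPM became -18220 CPM without RA replicate 1, -1090 CPM without RA replicate 3, -1859 CPM without RA replicate 2, -2979 CPM without control replicate 2 and -11560 CPM without control replicate 3, and -2327 CPM when scaled to the library total.

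**Figure D2:**
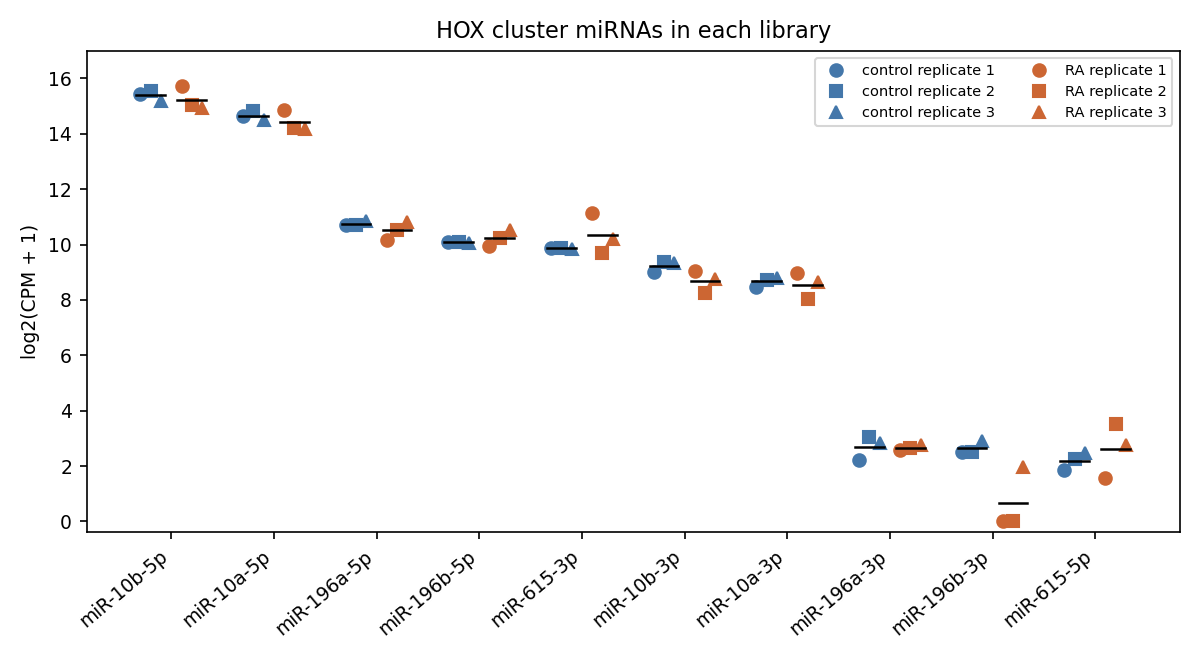
Level of each of the 10 HOX cluster miRNAs in each library as log2(CPM + 1), with controls in blue, RA in orange, a symbol for each replicate number and a bar at the group mean. The miR-10 guide strands stand highest, 3 passenger strands lie at 10.4 CPM or less in every library, and the groups overlap for 9 of the 10 miRNAs.

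The levels fell into tiers. In the controls the order was miR-10b-5p, miR-10a-5p, miR-196a-5p, miR-196b-5p, miR-615-3p, miR-10b-3p and miR-10a-3p, and no neighbouring ranges overlapped among these 7. The last 3, miR-196a-3p, miR-196b-3p and miR-615-5p, stood between 2.63 and 7.22 CPM in the controls. There the range of miR-196a-3p overlapped both others, and miR-615-5p (up to 4.50 CPM) lay below miR-196b-3p (from 4.66 CPM). After RA the ranges of miR-196a-5p, miR-196b-5p and miR-615-3p overlapped each other. The order is by reads and includes any difference in how well each sequence was captured.

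hsa-miR-10b-5p, the guide strand of the HOXD hairpin, was the 5th most abundant of all miRNAs. It stood at 44867, 48373 and 37093 CPM in the controls and at 54392, 33406 and 31285 CPM in RA replicates 1 to 3. RA replicate 1 lay above every control and the other 2 RA libraries below every control, so that the groups overlapped. Its log2 fold change of -0.17 had a standard error of 0.25 and a 95% interval of -0.72 to 0.38, or 0.608-fold to 1.30-fold (limma, adjusted p = 0.73), and the sign turned with DESeq2 (0.041). Without RA replicate 1 it was -0.42 (limma, adjusted p = 0.19), without RA replicate 3 -0.019, and between -0.28 and -0.066 without any other library. RA replicate 1 was also the library with the high miR-122-5p and the deepest of the RA libraries, at 1158116 reads. Whether either bears on its miR-10b-5p level was not tested.

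hsa-miR-10a-5p, the guide strand from HOXB, was the 9th most abundant. The control levels were 25369, 28947 and 22965 CPM, and those after RA 29478, 19024 and 18396 CPM. The libraries kept the order they had for miR-10b-5p, with RA replicate 1 highest of all and the other 2 RA libraries lowest. By limma it changed by -0.24 on the log2 scale (standard error 0.23, 95% interval -0.74 to 0.27, adjusted p = 0.63). Without RA replicate 1 this became -0.46 (limma, adjusted p = 0.12), and without RA replicate 3 it became -0.11.

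The balance between these strands differed between groups by no more than between replicates. Within a library, miR-10a-5p made up 36.1%, 37.4% and 38.2% of the reads of the pair in the controls and 35.1%, 36.3% and 37.0% after RA. The shallowest library, RA replicate 2, rested on 10065 reads of the pair and had an exact binomial 95% interval of 35.3% to 37.2%, which covers counting error only. On the log2 scale the ratio of miR-10a-5p to miR-10b-5p was -0.75 ± 0.07 in the controls and -0.82 ± 0.06 after RA (SD, n = 3 each, two-sided exact permutation p = 0.3).

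The other miRNAs whose pattern was closest to these strands were looked for among the 259 other miRNAs that averaged 10 CPM or more, by Pearson correlation of log2(CPM + 1) over the 6 libraries. For miR-10b-5p these were miR-423-5p (r = 0.99), miR-10a-5p (r = 0.98) and miR-221-5p (r = 0.96), and for miR-10a-5p they were miR-10b-5p, miR-423-5p (r = 0.97) and miR-221-5p (r = 0.90). The libraries share their depth and scaling across all miRNAs, and these values describe 6 points. miR-423-5p had control levels of 300.4, 324 and 261 CPM and RA levels of 380.2, 234 and 224 CPM, again highest in RA replicate 1.

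The passenger strand miR-10b-3p had the lowest unadjusted p of the miR-10 strands. Control libraries held 511, 663 and 648 CPM of it and RA libraries 521, 302 and 430.4 CPM. Only RA replicate 1 overlapped the controls, by the lowest of them. At a log2 fold change of -0.56 (standard error 0.24) it had an unadjusted p of 0.037 and an adjusted p of 0.20 from limma, and did not pass. Leaving out RA replicate 1 gave -0.74 (limma, adjusted p = 0.055), and leaving out RA replicate 2 gave -0.35.

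miR-10a-3p, its counterpart from HOXB, was measured at 357, 421 and 446 CPM without RA and 503, 260.5 and 401 CPM with it. RA replicate 1 lay above all controls and RA replicate 2 below them, on 50 reads. The change of -0.12 on the log2 scale had a standard error of 0.26 (limma, adjusted p = 0.80), and its sign turned positive in 4 alternative settings, among them scaling to the library total.

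Arm ratios were formed from CPM + 1 within each library. The 5p strand of miR-10b outnumbered the 3p strand 87.6, 72.8 and 57.1-fold in the controls and 104, 110.2 and 72.5-fold after RA. Those ranges overlapped, and the log2 ratio of 6.16 ± 0.31 in the controls and 6.56 ± 0.33 after RA (SD, n = 3 each) had a two-sided exact permutation p of 0.3 (0.75 adjusted over the 5 hairpins). For miR-10a the ratio was 51.4 to 70.9 in the controls and 45.7 to 72.8 after RA (p = 0.7, exact permutation).

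miR-196a-5p, from HOXB or HOXC, was at 1686, 1674 and 1836 CPM without RA, and at 1145, 1479 and 1820 CPM with it. RA replicates 1 and 2 lay below the controls and RA replicate 3 among them. The change of -0.25 on the log2 scale had a standard error of 0.20 and a 95% interval of -0.70 to 0.20 (limma, adjusted p = 0.56), and was -0.077 without RA replicate 1 and -0.41 without RA replicate 3.

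miR-196b-5p, from HOXA, stood at 1089, 1099.7 and 1060.1 CPM in the controls, with a coefficient of variation of 1.89%. After RA it stood at 979.5, 1214 and 1474 CPM, on both sides of the controls. Its log2 fold change of 0.16 had a standard error of 0.20 and a 95% interval of -0.28 to 0.59 (limma, adjusted p = 0.69), and was 0.30 without RA replicate 1 and 0.010 without RA replicate 3. For both miR-196 guide strands RA replicate 1 was the lowest library of all, whereas for the miR-10 guide strands it was the highest.

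The ratio between the miR-196 guide strands separated the groups. miR-196a-5p made up 60.8%, 60.4% and 63.4% of the reads of the pair in the controls and 53.9%, 54.9% and 55.3% after RA. The exact binomial 95% intervals reached down to 59.4% in the controls and up to 59.3% in RA replicate 2, which had 517 reads of the pair. As a log2 ratio this was 0.68 ± 0.10 in the controls and 0.27 ± 0.04 after RA (SD, n = 3 each), a difference of -0.40, or 0.755-fold, seen in every RA library. The two-sided exact permutation p was 0.1, the smallest this design allows (0.4 adjusted over all 8 ratios computed). This ratio was chosen after the values had been seen, and neither strand passed by itself. Leaving out any 1 library kept the difference between -0.44 and -0.35.

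**Figure D3:**
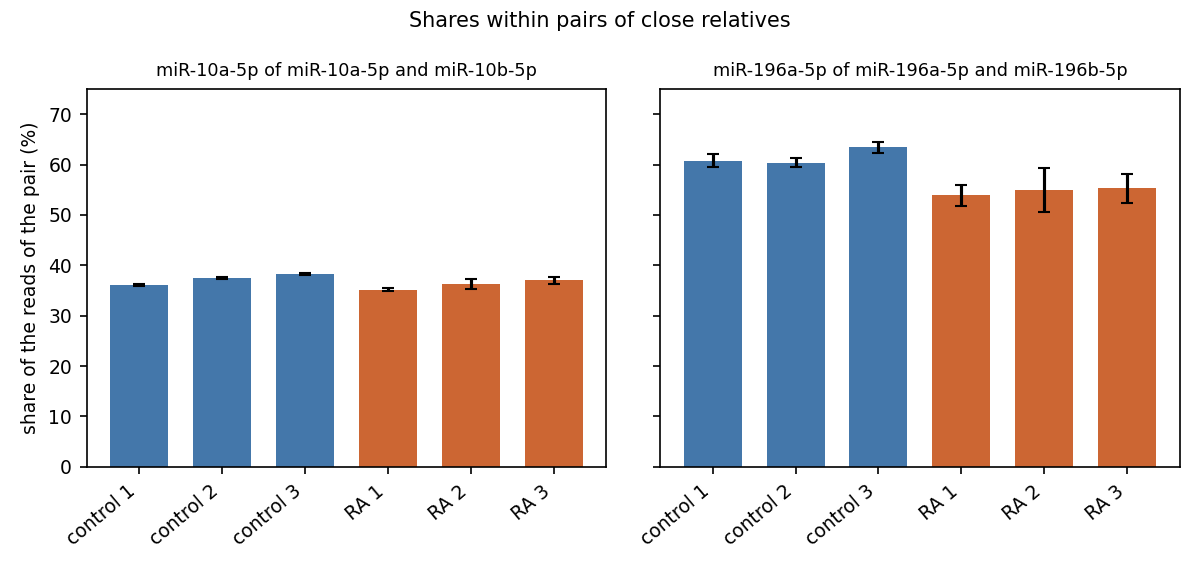
Share of the reads of a pair taken by miR-10a-5p (left, with miR-10b-5p) and by miR-196a-5p (right, with miR-196b-5p) in each library, in percent. Error bars are exact binomial 95% intervals for counting error. The miR-10a-5p share lies between 35.1% and 38.2% in all libraries, and the miR-196a-5p share is 60.4% or more in the controls and 55.3% or less after RA.

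The passenger strand miR-196b-3p was the member whose groups did not overlap. It had 9, 20 and 20 reads in the controls (4.73, 4.66 and 6.42 CPM) and 0, 0 and 1 read after RA (0, 0 and 2.91 CPM). Lower values without overlap were found for 17.1% of all 449 miRNAs. The pooled RA level was 0.123 of that in the controls on these 49 and 1 reads, with an exact 95% interval of 0.0030 to 0.716 for counting error, and 8.15 RA reads would have been counted at the control level. In RA replicate 2 a level of up to 15.6 CPM (3 reads) could go unseen, above every control value, so that its 0 carries little information, whereas in RA replicate 1 that limit was 2.96 CPM. Limma gave a log2 fold change of -1.98 (standard error 0.77), with an unadjusted p of 0.025 and an adjusted p of 0.15. The fold change depends on the added 1 CPM. It was -2.59 with 0.5 CPM added and -0.81 with 5 CPM (limma, adjusted p = 0.15 and 0.17). Without RA replicate 3, where the remaining RA values are both 0, the adjusted p was 0.025 from limma, which passed.

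The arm ratio of miR-196b rests on the same few reads. The 5p strand outnumbered the 3p strand 143 to 195-fold in the controls and 378 to 1215-fold after RA on CPM + 1, without overlap (two-sided exact permutation p = 0.1, the smallest possible, and 0.5 adjusted over the 5 hairpins). As the 3p strand had 0 reads in RA replicates 1 and 2, the added 1 CPM sets those ratios, and the log2 difference of 2.14 became 0.97 with 5 CPM added. For miR-196a the ratio was 204 to 360.3 in the controls and 193 to 267 after RA. Its 3p strand, miR-196a-3p, rested on 7, 31 and 19 reads in the controls and 5, 1 and 2 after RA. Its log2 fold change of -0.04 had a standard error of 0.60 (limma, adjusted p = 0.98), and the sign turned in 7 alternative settings.

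miR-615-3p, encoded in HOXC, was the dominant strand of its hairpin, unlike the 5p strands of miR-10 and miR-196. It was the steadiest member in the controls, at 940.2, 944 and 922 CPM, and the most variable of the 7 abundant members after RA, at 2229.6, 833 and 1175 CPM. RA replicates 1 and 3 lay above the controls and RA replicate 2 below them, on 160 reads. The coefficient of variation was 1.26% in the controls and 51.5% after RA. It changed by 0.47 on the log2 scale (standard error 0.30, 95% interval -0.19 to 1.13), with an adjusted p of 0.41 by limma and 0.19 by edgeR, by 0.08 without RA replicate 1, the library with the high miR-122-5p, and by 0.79 without RA replicate 2. Whether the miR-122-5p or the depth of RA replicate 1 bears on these values was not tested. miR-615-5p had 5, 16 and 14 reads in the controls and 2 in each RA library, and changed by 0.43 on the log2 scale (standard error 0.70, limma adjusted p = 0.75), or by -0.015 without RA replicate 2. The log2 ratio of 5p to 3p was -7.68 ± 0.32 in control and -7.72 ± 1.70 in RA libraries (SD, n = 3 each, two-sided exact permutation p = 0.9).

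**Figure D4:**
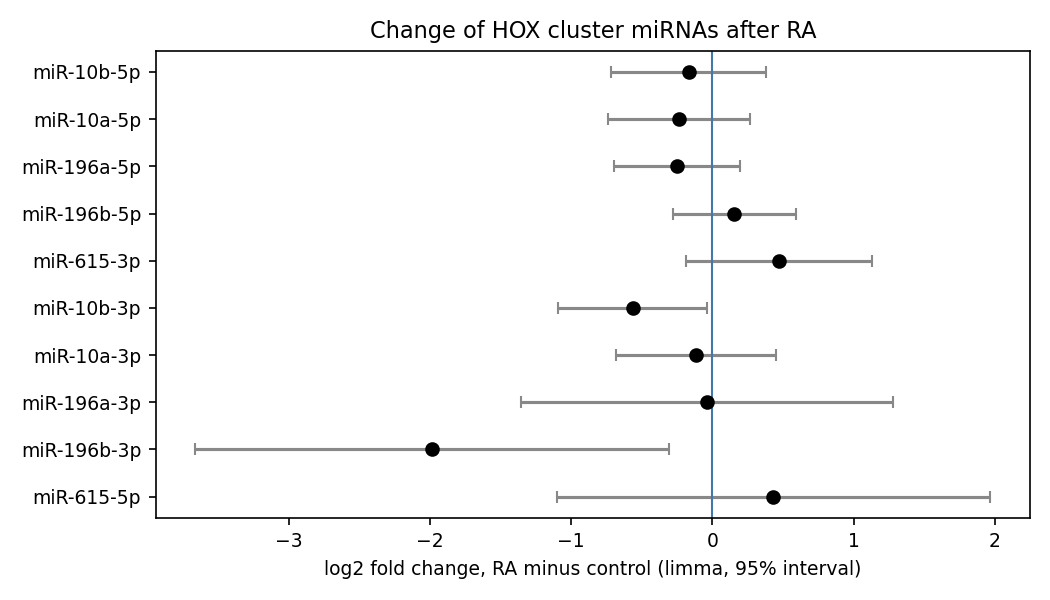
Log2 fold change (RA minus control) of each HOX cluster miRNA from limma on log2(CPM + 1), with its 95% interval. The intervals of miR-10b-3p (-1.09 to -0.04) and miR-196b-3p (-3.66 to -0.30) lie below 0 before adjustment over all 449 miRNAs, and those of the other 8 include 0.

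The wider spread after RA was shared with the rest of the table. Over the 7 members with a mean of at least 10 CPM the median coefficient of variation was 11.3% in the controls and 27.9% after RA, beside 13.4% and 28.9% over all 260 such miRNAs.

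**Figure D5:**
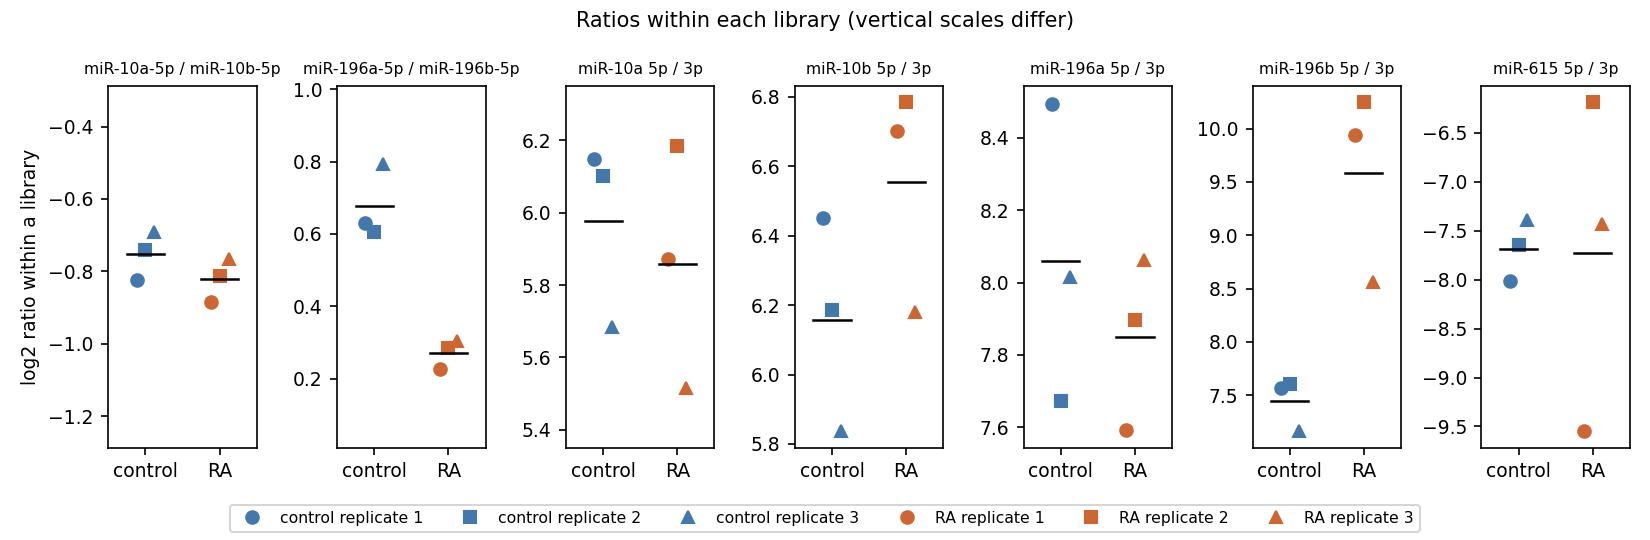
Log2 ratios within each library, between guide strands (2 panels at left, from reads) and between the arms of each hairpin (5 panels at right, from CPM + 1), with a bar at each group mean. The vertical scales differ between panels. The groups are apart for miR-196a-5p to miR-196b-5p (means 0.68 and 0.27) and for the arms of miR-196b (means 7.44 and 9.58), and they overlap in the other panels.

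The relatives of miR-10 outside the HOX clusters gave a similar picture. Of 6 strands of miR-99a, miR-99b and miR-100, none passed in limma or in edgeR, and by limma 0 had an unadjusted p below 0.05, beside 7.57%, 14.7% and 98 of 449 for all miRNAs, so that the absence of calls does not set these strands apart. Their median log2 fold change was -0.12. Mean levels without and with RA were 9311 ± 554 and 9527 ± 1689 CPM for miR-99b-5p and 6873 ± 816 and 6777 ± 1013 CPM for miR-99a-5p (SD, 3 libraries each). For miR-100-5p the log2 fold change of -0.44 had a standard error of 0.21 (limma, adjusted p = 0.25).

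Among 24 miRNAs linked to breast cancer metastasis, the role for which miR-10b is known, 20 had a row. The list pools promoters and suppressors of metastasis. Its median log2 fold change was -0.27, with -0.43 for the 7 measured promoters and -0.20 for the 13 measured suppressors. The median was 0.00 over all miRNAs and -0.15 over the 344 with at least 1 CPM in 3 libraries. By limma 1 of the list was lower and none was higher, beside 7.57% called in either direction among all miRNAs. The lower one was miR-31-5p, known for restraining metastasis, which went from 6199 ± 1434 CPM without RA to 3314 ± 227 CPM with it (SD, 3 libraries each). By limma its log2 fold change was -0.88 (adjusted p = 0.022). Its groups did not overlap, and lower values without overlap were found for 17.1% of all 449 miRNAs. miR-31-5p no longer passed when replicate 1 or 3 of the control or replicate 2 or 3 of RA was left out, with adjusted p up to 0.16 from limma. By their mean over all 6 libraries the 3 most abundant of the list were miR-21-5p, miR-10b-5p and miR-9-5p, which did not pass, and on the log2 scale miR-21-5p changed by -0.43 and miR-9-5p by -0.06. The list holds miR-10b-5p and miR-196a-5p themselves, and by edgeR 2 of it passed (14.7% of all miRNAs did), miR-31-5p and miR-126-3p. The second, an endothelial miRNA, was higher after RA by edgeR but stood at 394, 0 and 233 CPM in RA replicates 1 to 3, against 2.63 to 8.35 CPM without RA. miR-373-3p, miR-520c-3p, miR-141-3p and miR-205-5p of that list had no row.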

How the data were processed

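Small RNA of 6 BCSC libraries (3 control, 3 RA) was sequenced, and the authors deposited 1 table of 449 mature miRNAs with a normalised signal per library, CPM on a scaled library size, and a log2 value per group that was not used. The submitters' processing notes name hg19, whereas for the aligner, the counter and the treatment of reads shared by similar miRNAs the sources used here give nothing. All 2694 values were whole multiples of what 1 read was worth (within 0.01 reads), which gave reads and depth back.

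Groups were compared with limma 3.58.1 (R 4.3.3, mean-variance trend) on log2(CPM + 1) of the 449 miRNAs, p-values being adjusted after Benjamini and Hochberg (threshold 0.05). A pseudocount of 1 understates changes of low miRNAs. Alternatives were edgeR 4.0.16, DESeq2 1.42.0 and voom on recovered reads, total and upper-quartile scaling, pseudocounts of 0.5 and 5, a filter (1 CPM in 3 libraries), a replicate block, and leaving out each library. The fits were tested on simulated data that had the spread of the controls alone. The wider spread after RA was not simulated, so that test does not cover it. Ratios within a library and summed levels were compared by two-sided exact permutation tests. Binomial (Clopper-Pearson) intervals and the detection floor of 3 reads cover counting error only, as reads without molecular identifiers are not independent molecules. Every member was named, with the 3 miRNAs most correlated with each miR-10 guide strand, and of the 2 lists the miRNAs that passed and the 3 most abundant. The members and lists were chosen with earlier results of these data known. The labels and the methods name different sequencers.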

Additional observations from a re-analysis of the deposited data

How the results depend on the processing

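Of 150 values (10 HOX cluster miRNAs under 15 alternatives), 136 kept their sign and their side of the threshold, 13 changed sign and 1 newly passed. The sign of miR-10b-5p turned with DESeq2 (0.041). That of miR-10a-3p turned with DESeq2 (0.13), total scaling (0.020), upper-quartile scaling (0.014) and without RA replicate 2 (-0.33 to 0.15 over the settings that leave out 1 library). That of miR-196a-3p turned with DESeq2 (0.062), voom (0.11), total scaling (0.072), upper-quartile scaling (0.070) and when control replicate 2 or 3 or RA replicate 1 was left out (-0.28 to 0.13), and that of miR-615-5p without RA replicate 2 (-0.015 to 0.95). These miRNAs did not pass in any setting. The cause of these turns was not tested. miR-196b-3p passed without RA replicate 3, so that leaving out 1 library gave 0 to 1 members that passed. Leaving out 1 library moved the difference in log2 arm ratio between -0.28 and 0.051 for miR-10a, between -0.40 and 0.0076 for miR-196a and between -0.81 and 0.87 for miR-615.

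Over all miRNAs limma called 13 higher and 21 lower. The numbers higher and lower were 38 and 28 with edgeR, 45 and 21 with DESeq2, 47 and 30 with voom, 17 and 11 with total scaling and 17 and 12 with upper-quartile scaling, and 6 to 21 higher and 4 to 28 lower without 1 library. Over all miRNAs the median log2 fold change was 0.00 by limma, 0.13 with total scaling, 0.12 with upper-quartile scaling, 0.15 with edgeR, 0.20 with voom and 0.32 with DESeq2, and -0.15 over the 344 miRNAs that passed the filter. Both miR-10 guide strands lay below the median in each of these. Of the metastasis-linked list 2 passed with edgeR.

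With the replicate number as a block, 24 miRNAs were higher and 31 lower, no HOX cluster miRNA passed and 3 of the metastasis-linked list passed. The numbers were not taken as pairs, as the methods describe no pairing. Deviations of same-numbered libraries correlated at 0.12, -0.19 and 0.13, and those of unlike-numbered libraries at -0.25 to 0.14. With 3 libraries per group these correlations cannot settle whether libraries were paired.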

Other observations

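The ratio of the miR-10 to the miR-196 guide strands, summed over both members of each family, was 25.3, 27.9 and 20.7 in control libraries and 39.5, 19.5 and 15.1 in RA libraries. RA replicate 1 had the highest ratio of all libraries and the other RA libraries the lowest. As a log2 ratio this was 4.61 ± 0.22 in the controls and 4.50 ± 0.72 after RA (SD, n = 3 each, two-sided exact permutation p = 0.9). By locus, the HOXD hairpin took a mean of 4.16% of the miRNA reads in the controls and 4.04% after RA, and HOXB 2.48% and 2.29%, leaving out miR-196a-5p. HOXA took 0.102% and 0.129%, and HOXC, also without miR-196a-5p, 0.0889% and 0.142%. miR-196a-5p itself took 0.163% and 0.157%. In RA replicates 1 to 3 HOXA stood at 0.0857%, 0.132% and 0.170%, and HOXC at 0.196%, 0.0923% and 0.137%. The two-sided exact permutation p of the shares was 0.4 for HOXA and 0.2 for HOXC.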
